A study of Mus musculus with 24 samples.

Results

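Histone genes were examined in splenic natural killer (NK) cells of mice that carried either of a pair of lymphomas. The members were the protein-coding genes whose names begin with Hist1h, Hist2h, Hist3h or Hist4h (replication-dependent histones) or with H2af or H3f (variant histones). This rule took 71 of the 45237 genes listed, 60 replication-dependent and 11 variant. Of the 71 genes, 52 reached 10 counts in at least 3 of the 24 libraries, 45 replication-dependent and 7 variant, and these 52 also passed the filter on low counts that the tests used. That filter needed counts in only a few libraries, so a gene could pass it through the groups where its level was high, and the counts over the 52 genes below describe those genes alone.

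All groups were NK cells sorted from the spleen of wild-type C57BL/6J mice. The control group came from untreated mice (n = 4). The other groups came from mice injected intravenously with RMA cells, a T cell lymphoma described as not stimulating NK cells, or with RMA-KR cells, an RMA derivative that lacks B2m, carries the NKG2D ligand Rae1-β, was subcloned and is described as stimulating NK cells strongly. NK cells of RMA-bearing mice were taken at an early (day 2, n = 3), an intermediate (day 4, n = 3) and a late stage (day 9, n = 3), and those of RMA-KR-bearing mice at an early (day 2, n = 3), an intermediate (day 7, n = 5) and a late stage (day 14, n = 3). Intermediate and late groups of the models therefore differ in day as well as in tumor. The study describes the replicates of its late and control RNA-seq groups as mice, at 3 per group. The control group here holds 4 libraries. For the early and intermediate groups no such statement was found, and p-values there measure the spread between these libraries, which may be technical. In bulk samples a change in the share of cells of one kind and a change of RNA per cell cannot be told apart.

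Histones package DNA into nucleosomes, built from H2A, H2B, H3 and H4, with the linker histone H1 bound to the DNA between them. Replication-dependent histone genes lie in clusters, have mostly no introns, and are transcribed mainly in S phase, when new DNA has to be packaged. Their mRNAs normally end in a conserved stem-loop in place of a poly(A) tail, and some of these genes can also give longer, polyadenylated mRNAs in cells that do not divide. Variant histone genes are transcribed outside S phase as well, carry introns in most cases and give polyadenylated mRNAs. The labels name the RNA as polyA RNA and the kit as one for mRNA, so an mRNA without a poly(A) tail counts here only as far as it was captured. The study's text calls the assay total RNA sequencing, so whether such mRNAs were selected against is not settled, and levels of genes whose mRNA ends in the stem-loop are read with that limit.

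The stem-loop is shown because the replication-dependent genes are grouped below by its place in the transcript model. Of the 60 replication-dependent genes, 57 have a single exon and 52 lie on chromosome 13, with 5 on chromosome 3, 2 on 11 and 1 on 6. In the GENCODE M21 models, a match to the histone stem-loop motif was found in 43 of the 60 replication-dependent genes, and the commonest form was present in 23 of them. In 21 genes the match lay at the end of the model, with at most 100 bases after it. In 22 genes it was followed by more sequence, and in 17 genes no match was in the model, which says only that the motif is absent from the model as annotated. Hist1h3c, with 74 bases after the match, lay just inside the limit of 100 bases, and Hist1h4a, with 108 bases, just outside. Below, 30 bases are given 5′ to 3′ for genes on which the results turn, with the motif in capitals. Hist1h2ab (11 bases follow the motif) and Hist1h3g (47 bases) have it at the end, while Hist1h4d (770 bases), Hist1h1c (840 bases) and Hist1h1e (1153 bases) have it followed by more sequence. The variant gene H2afx also holds one, with 822 bases after it.
Hist1h2ab: caaaGGCTCTTTTCAGAGCCacccacatct
Hist1h3g: taaaGGCTCTTCTTAGAGCCacccatcttc
Hist1h4d: caaaGGCCCTTTTCAGGGCCactaccttct
Hist1h1c: aaaaGGCTCTTTTCAGAGCCaccactccca
Hist1h1e: caaaGGCTCTTTTCAGAGCCacccacaact
H2afx: caaaGGCCCTTTTAAGGGCCaccacctccc

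Levels are counts scaled to the library total after TMM normalisation (normalised CPM), and differences are log2 fold changes fitted with edgeR, given ± their standard error. A gene was called when its Benjamini-Hochberg adjusted p over the 17097 genes tested was under 0.05 and its fold above 2. Libraries held between 5138651 and 14863500 counts (median 10489204). A list of 10 NK cell markers summed to 18634 to 33749.7 normalised CPM over the libraries, against 149 to 376 for 10 T cell markers, 0.309 to 54.5 for 7 B cell markers, 0 to 12.4 for 7 granulocyte markers and 0.0982 to 5.75 for 8 red cell genes, with no gene of these lists at 0 in all libraries. The sum of 7 macrophage and monocyte markers was above that of every control library in the RMA-KR early, RMA late and RMA-KR late groups, at 8.74 to 18.5 in control, 33.5 to 51.1 in RMA late and 39.6 to 79.9 in RMA-KR late, against 4.14 to 38.9 in RMA early, 28.6 to 32.1 in RMA-KR early, 16.5 to 20.3 in RMA intermediate and 8.64 to 28.9 in RMA-KR intermediate. That of 5 plasma cell markers was 1.66 to 5.18 in control, 0.651 to 2.63 in RMA late and 3.65, 153 and 40.1 in RMA-KR late replicates 1, 2 and 3. The plasma cell sum was 0.267 to 15.1 in RMA early and 1.69 to 69.3 in RMA-KR early. It was 1.60 to 7.06 in RMA intermediate and 1.57 to 7.70 in RMA-KR intermediate. The part of these cells in the histone levels of these groups was not tested. A list of 15 immediate-early and heat-shock genes that respond to cell handling summed to 1901 to 2288 in control 4 and RMA-KR intermediate 3, 4 and 5 and to 5689 to 13729.7 in the other 20 libraries.

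Over the 7 groups, 8 of the 52 histone genes differed by edgeR's quasi-likelihood F test at an adjusted p under 0.05, where 5.69% of all genes tested did. They were the variants H2afx, H2afv and H3f3a, the linker genes Hist1h1b and Hist1h1e, and the core genes Hist1h2ab, Hist1h3g and Hist1h4d. Against control NK cells, 3 histone genes were called in the RMA intermediate group (all higher, background 1.65%), 4 in the RMA late group (3 higher and 1 lower, background 1.79%) and 2 in the RMA-KR late group (1 higher and 1 lower, background 0.983%). None was called in the RMA early group (background 0%), the RMA-KR early group (background 0.0819%) or the RMA-KR intermediate group (background 0.0175%), where 1, 4 and 4 of the 52 had an unadjusted p under 0.05. DESeq2 with default settings called 0, 1 and 0 histone genes in those 3 comparisons, the 1 being Hist1h1e in the RMA-KR early group.

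Between stages, H2afx was the histone gene called in RMA intermediate against RMA early (1 gene, background 1.73%) and in RMA-KR late against RMA-KR intermediate (1 gene, background 0.298%). No histone gene was called in RMA late against RMA intermediate (background 0%, 0 at an unadjusted p under 0.05, 0 by DESeq2) or in RMA-KR intermediate against RMA-KR early (background 0.462%, 3 at an unadjusted p under 0.05, 1 by DESeq2, Hist1h3f). Between the models, no histone gene was called at the early stage (background 0.304%, 3 at an unadjusted p under 0.05, 1 by DESeq2, H3f3a) or at the late stage (background 0%, 1 at an unadjusted p under 0.05, 0 by DESeq2). The comparison of the RMA and RMA-KR intermediate groups was added after the data were seen, and 3 histone genes were higher in the RMA group there (background 0.503%). The comparisons with control share the same 4 control libraries.

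Most of the 52 genes were not called. The values that follow describe these 52 genes, some of which passed the filter through the groups where they were high, and are no evidence about the 71. Of the 52, 35 (67.3%) were fitted higher in RMA intermediate, 36 (69.2%) in RMA late and 29 (55.8%) in RMA-KR late, with median log2 fold changes of 0.43, 0.77 and 0.16. Over all genes tested, 36.6%, 40.7% and 40.8% were fitted higher and the medians were -0.29, -0.18 and -0.18. In RMA early, RMA-KR early and RMA-KR intermediate the medians of the 52 were 0.01, -0.23 and -0.21, against -0.06, 0.00 and 0.01 for all genes. The 19 genes that did not reach the limit had between 1 and 98 counts over all 24 libraries.

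**Figure D1:**
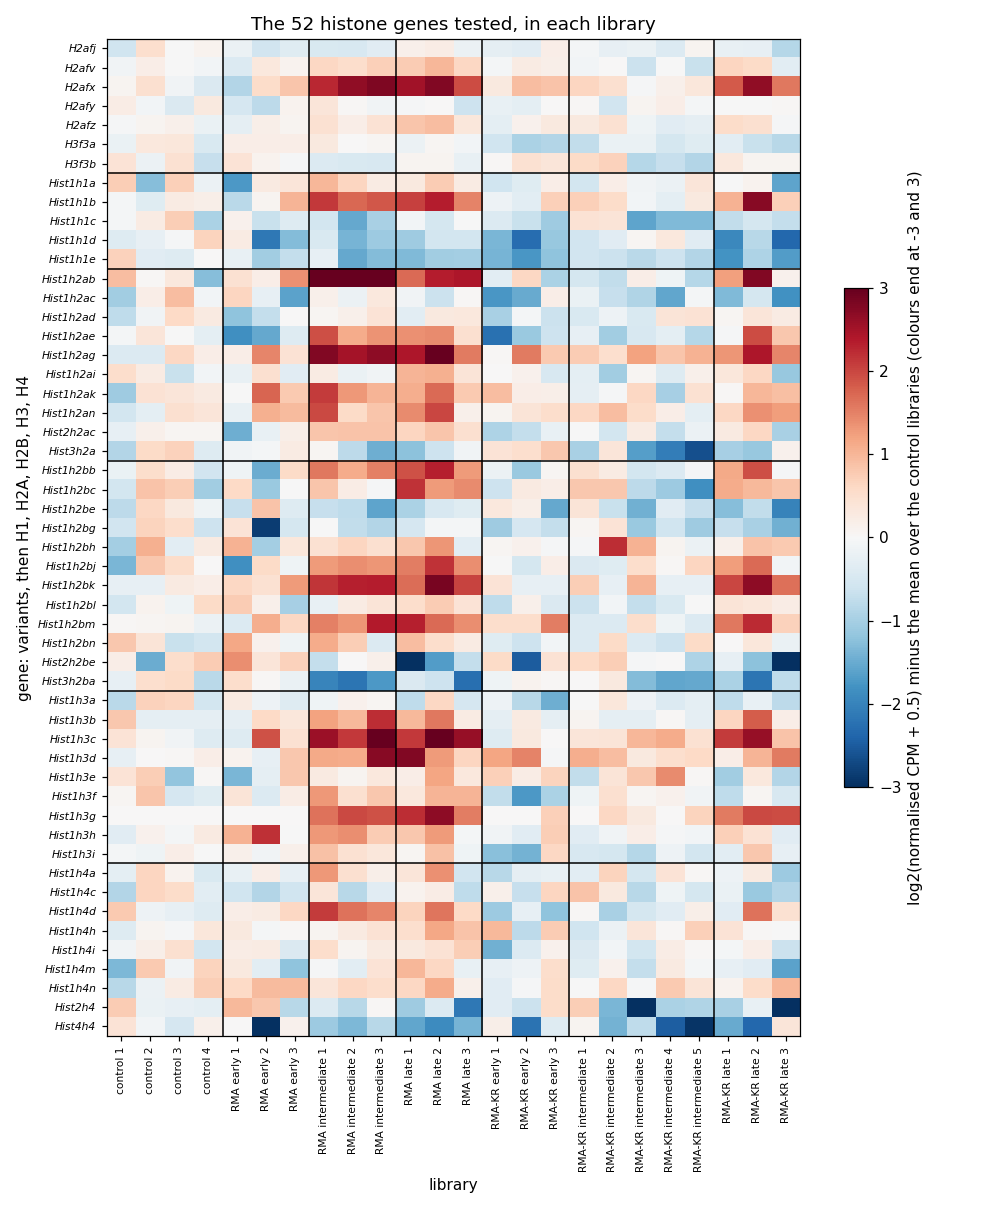
Each row is one of the 52 histone genes tested and each column a library, grouped by condition. The colour is log2(normalised CPM + 0.5) minus the mean over the control libraries, with colours ending at -3 and 3, and H2afx, Hist1h1b, Hist1h2ab and Hist1h2ag are red over the RMA intermediate and RMA late libraries while Hist3h2ba and Hist4h4 are blue there.

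Among the variants, H2afx showed the clearest difference. It encodes H2A.X, which is phosphorylated around DNA breaks, and is a single-exon gene on the plus strand of mm10 chr9:44334694-44336077, overlapped by Gm44335 on the other strand. The 4 control libraries held 29.2, 38.3, 25.4 and 20.2 normalised CPM. RMA early libraries held 14.7, 40.6 and 49.2, RMA intermediate 133, 177 and 195, and RMA late 159, 192 and 109. In RMA-KR-bearing mice the values were 33.6, 52.5 and 50.4 at the early stage, 43.2, 38.6, 27.0, 30.8 and 35.1 at the intermediate stage, and 99.2, 177 and 83.4 at the late stage. All libraries of the RMA intermediate, RMA late and RMA-KR late groups lay above every other library, and the other 4 groups overlapped.

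H2afx rose 5.96-fold in the RMA intermediate group against control (log2 fold change 2.57 ± 0.34, edgeR adjusted p = 0.000179), 5.42-fold in the RMA late group (2.44 ± 0.34, adjusted p = 0.000295) and 4.24-fold in the RMA-KR late group (2.08 ± 0.34, adjusted p = 0.00200). These 3 calls held with each library left out in turn, where the adjusted p reached at most 0.00236, 0.00389 and 0.0160. H2afx was also higher in RMA intermediate than in RMA early (2.27, adjusted p = 0.00298, but 0.0689 when fitted on these groups alone) and in RMA-KR late than in RMA-KR intermediate (1.78, adjusted p = 0.00873). The latter was no longer called without RMA-KR late replicate 2 (1.41, adjusted p = 0.0593), without the 4 libraries with low handling genes (0.295) or when fitted on its groups alone (0.0529). At the intermediate stage H2afx was 4.81-fold higher with RMA than with RMA-KR (2.27, adjusted p = 0.000464). The RMA-KR intermediate group itself differed from control by 0.31 (adjusted p = 0.999).

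A pair of genes encodes H2A.Z, a variant that is exchanged into nucleosomes at promoters. H2afv (chr11:6427229-6444443, minus strand) held 94.1, 117, 100.3 and 96.8 normalised CPM in control libraries, 156, 146 and 166 in RMA intermediate, 173, 202 and 158 in RMA late and 160.1, 152 and 81.5 in RMA-KR late. The RMA-KR intermediate libraries ranged from 63.6 to 103, with a median of 95.7. All RMA intermediate and late libraries lay above the control libraries, but neither difference was called (0.61, adjusted p = 0.202, and 0.80, adjusted p = 0.0588). The test over the 7 groups gave an adjusted p of 0.0232, which passed 0.05 without RMA intermediate replicate 3 (0.0503), RMA late replicate 1 (0.0513), RMA late replicate 2 (0.0797) or RMA-KR intermediate replicate 3 (0.0583). H2afz (chr3:137864487-137866922, plus strand) ranged from 59.7 to 75.2 in control and held 121, 129 and 85.6 in RMA late libraries, a difference of 0.71 that was not called (adjusted p = 0.103). Its RMA intermediate libraries also all lay above the control libraries, and that difference was not called either. Of the windows of 50 bases, the read length, in the H2afz model, 30.4% occur in no other gene model, so some of its reads could match elsewhere.

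H3f3a and H3f3b encode one protein, H3.3, the H3 variant deposited outside replication. Per kilobase of transcript, H3f3b had a mean level of 739 normalised CPM in control cells and H3f3a of 81.0. H3f3a (chr1:180800832-180813943, minus strand) held 49.7, 70.8, 72.6 and 41.4 normalised CPM in control, 65.1, 66.0 and 66.1 in RMA early and 37.7, 29.3 and 30.7 in RMA-KR early. Both early groups thus stood apart from each other, with RMA early above RMA-KR early in every library. The difference of 1.01 between them was not called by edgeR (adjusted p = 0.0827), while DESeq2 gave an adjusted p of 0.000338. Its test over the 7 groups (adjusted p = 0.0402) passed 0.05 whenever any 1 library was left out except control replicate 1, control replicate 4 or RMA-KR intermediate replicate 2, reaching at most 0.120. In the H3f3a model, 20.5% of 50-base windows occur in no other gene model.

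H3f3b (chr11:116021912-116027962, minus strand) was the most abundant member, with 1333, 898, 1379 and 628 normalised CPM in control libraries and 763, 735 and 721 in RMA intermediate. Within the RMA-KR intermediate group the values were 1493, 1639.9, 553, 626 and 546. The low values, in control 4 and RMA-KR intermediate 3, 4 and 5, belong to the 4 libraries with low handling genes. The same 4 libraries had B cell marker sums of 30.6, 51.5, 54.5 and 36.0, against 3.76 to 22.0 in the other control libraries and 6.25 and 17.8 in the other RMA-KR intermediate libraries. Their NK cell marker sums were 22478.5, 19967, 19756 and 18634, against 22069.7 to 31496 and 30818 and 32464. B cell marker sums of 41.5 and 39.0 also occurred in RMA-KR late replicates 2 and 3, where the handling genes summed to 8416 and 10547. No difference in H3f3b was called. Without these 4 libraries, a choice made after the data were seen, H3f3b and Hist1h1c were among 4 histone genes called over the 7 groups, with H2afx and Hist1h4d (background 3.99%). What part sample handling or other cells had in these levels was not tested.

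No difference was called for H2afy, which encodes macroH2A1 (chr13:56073619-56136361, minus strand), with group means from 42.1 to 58.3 normalised CPM, or for H2afj (chr6:136808244-136810074, plus strand), with group means from 38.2 to 54.2. H2afb1, H2afb2, H2afb3 and H2afy2 did not reach the limit, with 2, 5, 5 and 28 counts over all 24 libraries.

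**Figure D2:**
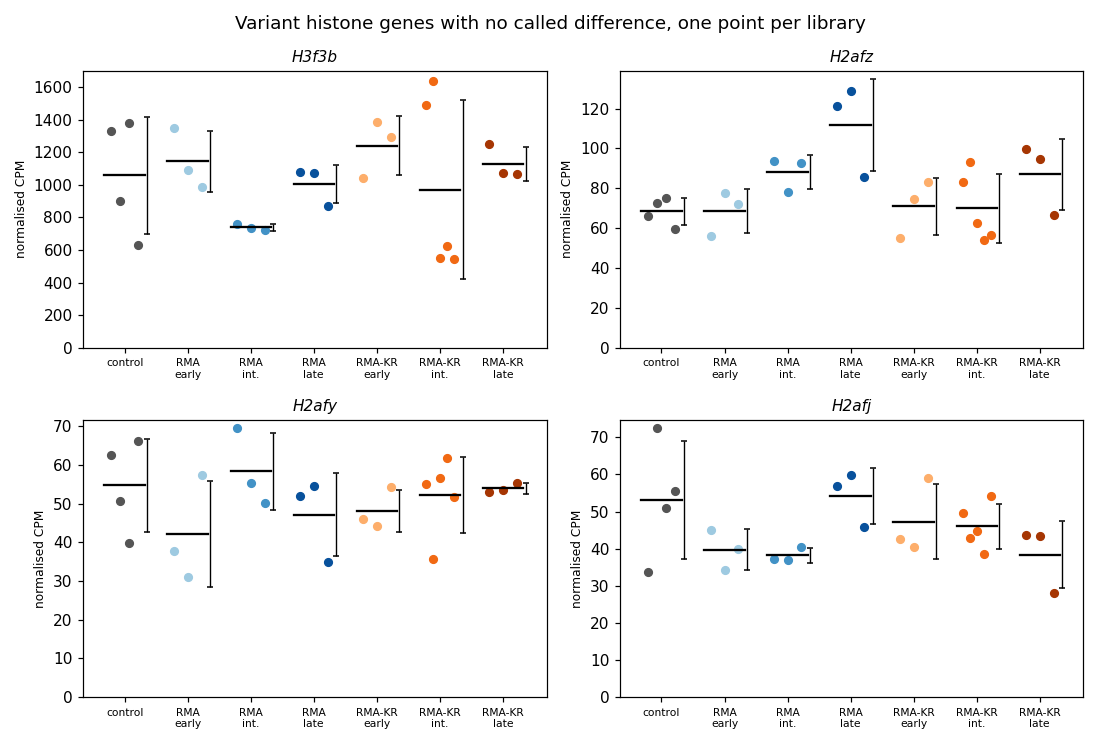
Levels of H3f3b, H2afz, H2afy and H2afj in normalised CPM, with 1 point per library, a line at the group mean and a bar for ± 1 SD, where int. stands for intermediate. H3f3b splits within the control and RMA-KR intermediate groups, while H2afz is highest in RMA late libraries (85.6 to 129).

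**Figure D3:**
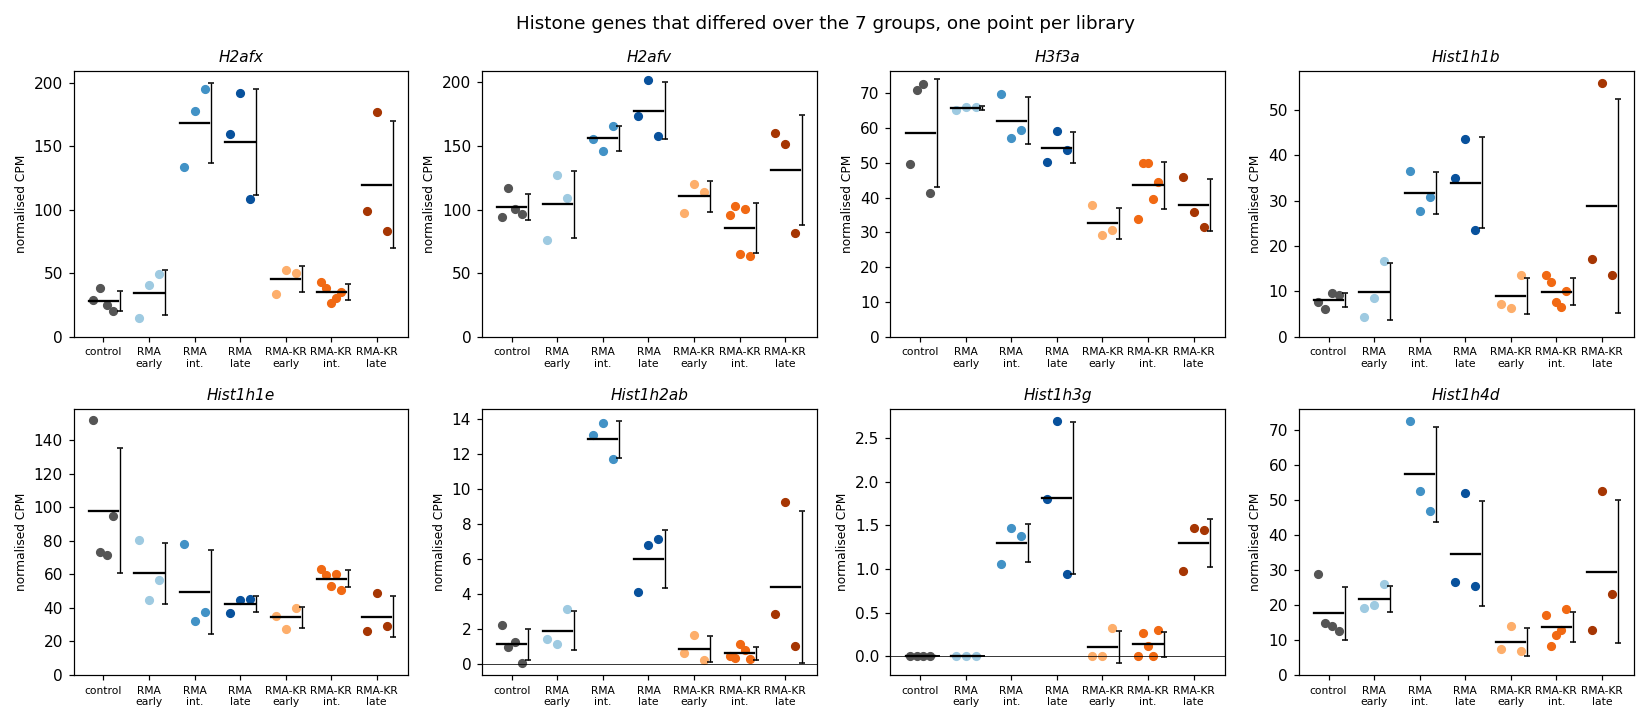
Levels in normalised CPM of the 8 histone genes that differed over the 7 groups, with 1 point per library, a line at the group mean and a bar for ± 1 SD, where int. stands for intermediate. H2afx lies between 83.4 and 195 in the RMA intermediate, RMA late and RMA-KR late libraries and below 53 elsewhere, and Hist1h1e has its highest library (152) in the control group.

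Of the 5 linker histone genes tested, Hist1h1b rose and Hist1h1e fell, and no other was called. Against control, 4 of the 5 were fitted lower in RMA early, RMA-KR early, RMA-KR intermediate and RMA-KR late, and 3 in RMA intermediate and RMA late. Hist1h1b, which encodes H1.5 (chr13:21779883-21780625, minus strand), held 7.76, 6.17, 9.69 and 9.11 normalised CPM in control libraries, 36.6, 27.7 and 30.8 in RMA intermediate, 35.0, 43.5 and 23.4 in RMA late and 17.1, 56.0 and 13.6 in RMA-KR late. The remaining groups stayed between 4.40 and 16.8. All libraries of those 3 groups lay above the control libraries. Hist1h1b rose by 1.95 ± 0.50 in RMA intermediate (edgeR adjusted p = 0.0373) and by 2.05 ± 0.50 in RMA late (adjusted p = 0.0253). The first call was lost without any 1 of its 7 libraries (adjusted p 0.0826 to 0.151), and the second without any 1 of them but RMA late replicate 3 (0.0561 to 0.184, against 0.0223). The RMA-KR late difference of 1.82 was not called (adjusted p = 0.0829) and was 0.94 without RMA-KR late replicate 2 and was called without RMA-KR late replicate 3 (adjusted p = 0.0398).

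Hist1h1e, which encodes H1.4 (chr13:23620629-23622558, minus strand), fell. Control libraries held 152, 73.6, 71.8 and 94.7 normalised CPM, RMA late 37.1, 45.0 and 45.6, and RMA-KR late 26.5, 48.7 and 29.1. The RMA-KR early libraries, at 35.1, 27.7 and 40.2, and the RMA-KR intermediate libraries, from 50.9 to 63.1, also lay below all control libraries, while RMA early (44.7 to 80.6) and RMA intermediate (32.2 to 78.2) overlapped them. Hist1h1e fell by 1.20 on the log2 scale in RMA late (adjusted p = 0.0450) and by 1.49 in RMA-KR late (adjusted p = 0.0209). The RMA late call was lost without control replicate 1 (adjusted p = 0.185), control replicate 4 (0.0817), RMA late replicate 1 (0.298), replicate 2 (0.213) or replicate 3 (0.109), and the RMA-KR late call without control replicate 1 (0.0852), RMA-KR late replicate 1 (0.132) or replicate 3 (0.121). Without the 4 libraries with low handling genes, neither was called (-1.22, edgeR adjusted p = 0.144, and -1.48, adjusted p = 0.0890). Fitted on its groups alone, the RMA-KR late difference was -1.48 and not called (adjusted p = 0.0976). The test over the 7 groups (adjusted p = 0.0178) passed 0.05 without control replicate 1 (0.0887), the library at 152, and without the 4 libraries (0.104). The RMA-KR early difference of -1.51 was not called by edgeR (adjusted p = 0.0753) but was by DESeq2 (adjusted p = 0.00176). The model of Hist1h1e overlaps Hist1h2be and Gm11398 on the same strand, where reads could not be assigned to one gene.

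Hist1h1c, which encodes H1.2 (chr13:23738808-23740367, plus strand), was the most abundant replication-dependent gene. Control libraries held 204, 255, 358 and 110.4 normalised CPM and RMA intermediate 144, 73.0 and 109, and the RMA-KR intermediate libraries split into 289 and 279 against 71.2, 84.2 and 85.4. No difference was called (RMA intermediate -1.09, adjusted p = 0.251). It was called lower in RMA intermediate than in control without the 4 libraries with low handling genes (-1.30, adjusted p = 0.0187) and without a filter on low counts (adjusted p = 0.00968). Hist1h1d, which encodes H1.3 and was added after its values were seen, held 33.6 to 71.1 in control libraries, and all libraries of RMA-KR early (8.73 to 19.96), RMA intermediate (16.7 to 32.0), RMA late (20.8 to 30.2) and RMA-KR late (8.29 to 24.7) lay below them. None of these differences was called by edgeR, with log2 fold changes of -1.61, -1.01, -0.78 and -1.65 (adjusted p = 0.303, 0.315, 0.496 and 0.131). Separation from the control libraries also occurred in the other direction, as for Hist1h2bk and Hist1h2bm. Its share over all genes is not given here, so nothing is read from it. Per kilobase, the control mean was 149 normalised CPM for Hist1h1c, 50.8 for Hist1h1e and 11 for Hist1h1b.

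The promoters of Hist1h1b and Hist1h1e are shown because these genes moved in opposite directions. RefSeq promoter sequences on GRCm38.p6, from 250 bases before to 50 after the start, matched 65 of the 71 members, 55 replication-dependent and 10 variant. Both strands were searched for the CCAAT box (CCAAT), the TATA box (TATAAA), the octamer (ATTTGCAT) and the H1 box (AAACACA). The motif CCAAT was found in 84.6% of members and 42.3% of the 17491 protein-coding genes in the table, TATAAA in 53.8% and 14.8%, ATTTGCAT in 21.5% and 1.90%, and AAACACA in 15.4% and 7.17%. By family, AAACACA was found in 5 of 6 H1 promoters and ATTTGCAT in 7 of 16 H2A and 6 of 13 H2B promoters, while none of 8 H3 and 12 H4 promoters held either. CCAAT was found in every matched H1, H2A, H2B and H3 promoter but in only 3 of 12 H4 promoters (25%). Among variants, TATAAA was found in 1 of 10. H2afx, Hist1h2bc, Hist1h3a, Hist1h3f, Hist2h2be and Hist2h4 are the members without a matched promoter. Capitals in the promoters below mark these motifs on either strand, and both promoters hold the H1 box, the CCAAT box and the TATA box.
Hist1h1b, chr13:21780576-21780875, minus strand: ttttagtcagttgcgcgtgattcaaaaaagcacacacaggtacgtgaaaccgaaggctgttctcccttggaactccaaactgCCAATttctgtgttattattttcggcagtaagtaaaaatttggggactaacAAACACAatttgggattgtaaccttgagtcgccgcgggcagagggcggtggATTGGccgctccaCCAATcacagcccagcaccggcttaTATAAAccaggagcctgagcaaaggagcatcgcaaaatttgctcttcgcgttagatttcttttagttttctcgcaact
Hist1h1e, chr13:23622509-23622808, minus strand: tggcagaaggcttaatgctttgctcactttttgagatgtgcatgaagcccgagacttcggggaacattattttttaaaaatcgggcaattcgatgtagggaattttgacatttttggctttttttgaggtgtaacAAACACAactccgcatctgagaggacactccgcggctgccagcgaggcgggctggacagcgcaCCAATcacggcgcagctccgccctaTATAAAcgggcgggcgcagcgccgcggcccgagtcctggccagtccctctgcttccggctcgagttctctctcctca

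Of the core histone genes, 3 differed over the 7 groups, and each was highest in RMA groups. Hist1h2ab (H2A, chr13:23751126-23751598, plus strand) held 2.22, 0.965, 1.26 and 0.0893 normalised CPM in control libraries, 13.1, 13.7 and 11.7 in RMA intermediate, 4.13, 6.79 and 7.15 in RMA late and 2.85, 9.28 and 1.06 in RMA-KR late. The RMA-KR intermediate libraries ranged from 0.295 to 1.15. Both later RMA groups lay above every control library. Hist1h2ab was higher in RMA intermediate than in RMA-KR intermediate (4.36, adjusted p = 0.0285), a call lost without any 1 of these 8 libraries except RMA-KR intermediate replicate 3 (adjusted p 0.0418 to 0.122 over all 8). Against control the differences of 3.51 in RMA intermediate (adjusted p = 0.0644) and 2.42 in RMA late (adjusted p = 0.239) were not called by edgeR, while DESeq2 gave adjusted p of 0.000422 and 0.0247. Its test over the 7 groups (adjusted p = 0.0182) passed 0.05 without RMA intermediate replicate 1 (0.0713), 2 (0.0766) or 3 (0.0674). The gene overlaps Gm44484 on the other strand, and whether counting used strand is not given in the sources used here.

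Hist1h3g (H3, chr13:23535422-23535951, plus strand) had 0 counts in all control and RMA early libraries. RMA intermediate libraries held 1.06, 1.47 and 1.38 normalised CPM (39 counts in all), RMA late 1.81, 2.70 and 0.946 (59 counts) and RMA-KR late 0.979, 1.48 and 1.45 (47 counts), while RMA-KR intermediate libraries held between 0 and 0.295. Set against a floor of 3 counts over the control group, its mean level was 22.1-fold higher in RMA late. By the same measure it was 15.8-fold higher in RMA intermediate and 15.8-fold higher in RMA-KR late. The floor bounds the control side only, and the spread of the higher group is not in these folds. The RMA intermediate and RMA-KR late differences were not called by edgeR. The RMA late difference was called by edgeR (adjusted p = 0.0481), and the call was lost without any 1 of its 7 libraries (adjusted p 0.0530 to 0.172). Hist1h3g reached 10 counts in 8 libraries, all of them in groups where it was high. It thus passed the filter only through those groups, and its calls carry that limit. The test over the 7 groups (adjusted p = 0.0457) passed 0.05 without any 1 library except RMA-KR early replicate 3, RMA-KR intermediate replicate 1 or RMA-KR intermediate replicate 2, reaching at most 0.106.

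Hist1h4d (H4, chr13:23581598-23582735, plus strand), whose stem-loop is followed by more sequence, was highest in the RMA intermediate group. Control libraries held 29.0, 14.9, 14.0 and 12.6 normalised CPM, RMA intermediate 72.7, 52.5 and 46.9, RMA late 26.7, 51.9 and 25.5, RMA-KR intermediate between 8.19 and 18.9 and RMA-KR late 13.0, 52.5 and 23.1. RMA intermediate libraries lay above all control libraries, while both late groups overlapped them. Hist1h4d rose by 1.70 ± 0.45 in RMA intermediate against control (adjusted p = 0.0410) and was higher there than in RMA-KR intermediate (2.06, adjusted p = 0.0199). The first call was lost without control replicate 2 (0.127), 3 (0.139) or 4 (0.151) or without any RMA intermediate library (0.0898 to 0.214). The second was lost without RMA intermediate replicate 1 (0.119) or 2 (0.0592) or without RMA-KR intermediate replicate 2 (0.0565), 3 (0.0542) or 4 (0.0748). The RMA late and RMA-KR late differences, 0.98 and 0.75, were not called (adjusted p = 0.325 and 0.431), and the second was 0.07 without RMA-KR late replicate 2.

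The most counted genes of the core families showed no called difference apart from Hist1h4d. Among H2B genes, Hist1h2bc (chr13:23684199-23692908, plus strand) held 5.73, 16, 14.6 and 3.93 normalised CPM in control and 40.7, 21.5 and 24 in RMA late (1.51, adjusted p = 0.294), and Hist1h2bg ranged from 11.5 to 28.6 in control and from 6.26 to 10.9 in RMA-KR late. Of the H2A genes, Hist3h2a held 12.2 to 37.3 in control and 7.91 to 23.9 in RMA intermediate (-0.76, adjusted p = 0.557), and Hist1h2ac had group means between 2.95 and 7.94. Group means ran from 9.01 to 17.0 for the H3 gene Hist1h3a, from 1.77 to 4.29 for Hist1h3i, and from 8.83 to 17.3 for the H4 gene Hist1h4i. Just inside the limit, with 10 counts in 4 libraries, Hist1h2bl, Hist1h3b and Hist1h3h had 141, 106 and 108 counts in all, and just outside it, with 10 counts in 2 libraries, Hist1h4b and Hist1h4f had 98 and 77. In 20 of the 52 genes tested under 50% of the 50-base windows of the model occur in no other gene model, so reads of near-identical copies could be lost or shared among them.

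Grouped by the place of the stem-loop, a grouping chosen after the data were seen, the replication-dependent genes gave the medians below, as a description. Only 2 of the 15 genes with the stem-loop at the end had 10 counts in every control library, against 14 of the 19 with more sequence after it, so many of the former passed the filter through the groups where they were high, and the classes cannot be compared on their medians. Of the 15 tested genes with the stem-loop at the end, 13 were fitted higher in RMA intermediate, 14 in RMA late and 13 in RMA-KR late, with median log2 fold changes against control of 1.73, 2.28 and 1.51. Of the 19 tested genes with more sequence after the stem-loop, 8, 8 and 4 were fitted higher, with medians of -0.33, -0.31 and -0.79. The 11 genes with no stem-loop in the model had medians of 0.66, 0.96 and 0.45. The medians are unchanged to 2 decimals with Hist1h3g set to its bound.

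For the stem-loop at the end, followed by more sequence and absent, the medians in the other groups were 0.12, -0.21 and 0.28 in RMA early, -0.16, -0.58 and -0.22 in RMA-KR early, and -0.09, -0.46 and -0.24 in RMA-KR intermediate. Few individual genes were called, with 1 of 15 at the end (Hist1h3g higher, RMA late), 1 higher (Hist1h4d, RMA intermediate) and 1 lower (Hist1h1e, RMA late and RMA-KR late) of 19 with more sequence, and 1 of 11 with no stem-loop in the model (Hist1h1b higher, RMA intermediate and RMA late). Of all genes tested, 1.65%, 1.79% and 0.983% were called in RMA intermediate, RMA late and RMA-KR late. The RMA-KR late median for the stem-loop at the end was 0.76 without RMA-KR late replicate 2, 0.57 with DESeq2, 0.90 when fitted on its groups alone and 0.22 with DESeq2's shrunken fold changes, which gave 0.81 in RMA intermediate and 0.88 in RMA late.

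**Figure D4:**
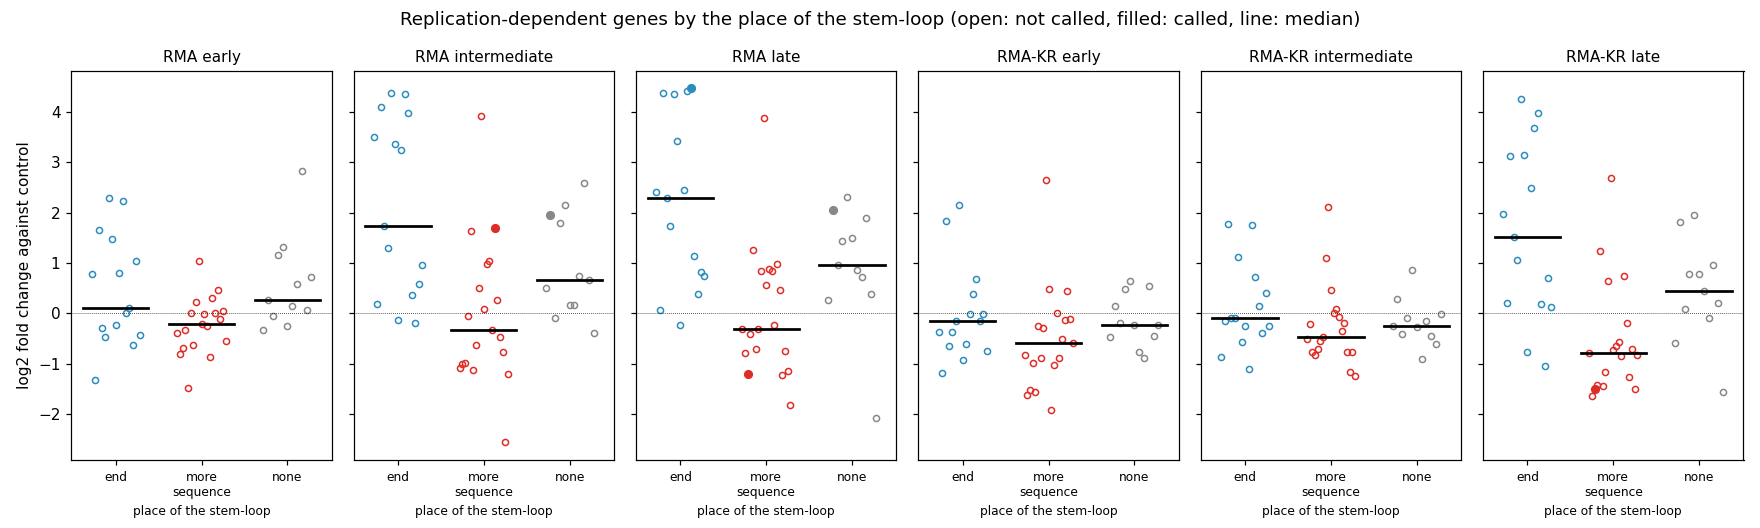
Fitted log2 fold change against control of each tested replication-dependent gene, in 1 panel per group and 3 columns by the place of the stem-loop, with called genes filled and a line at the class median. Hist1h3g is drawn at its bound where the control counts are 0, and the medians for the stem-loop at the end are 1.73, 2.28 and 1.51 in RMA intermediate, RMA late and RMA-KR late.

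Summed over genes, the 2 classes differed in level. Genes with the stem-loop at the end summed to 17.9 to 41.5 normalised CPM in control libraries, 61.1 to 68.4 in RMA intermediate, 47.6 to 89.6 in RMA late, 23.2 to 60.2 in RMA-KR late, 28.3 to 29.5 in RMA early, 18.9 to 24.02 in RMA-KR early and 26.4 to 30.8 in RMA-KR intermediate. Those with more sequence summed to 376 to 635 in control, 250.3 to 448 in RMA intermediate, 374 to 409.8 in RMA late and 242 to 349 in RMA-KR late, and to 298 to 505 in RMA early, 276 to 315 in RMA-KR early and 234 to 511 in RMA-KR intermediate. All RMA-KR early and RMA-KR late libraries lay below every control library in this sum. These genes made up most of the replication-dependent signal in every group. The most counted of them were the linker genes Hist1h1c, Hist1h1e and Hist1h1d, with 41029, 13308 and 7119 counts over all libraries. The sum therefore largely follows these linker genes described above. RNAs that mostly lack a poly(A) tail (the snRNA, snoRNA, scaRNA and misc_RNA biotypes) summed to 76.9 to 185 in control, 40.3 to 68.4 in RMA intermediate, 48.6 to 104 in RMA late and 60.6 to 122 in RMA-KR late. The same sum was 151 to 222 in RMA early, 136 to 214 in RMA-KR early and 74.3 to 178 in RMA-KR intermediate. All RMA intermediate libraries thus lay below all control libraries in this sum, while those 3 groups overlapped the control libraries.

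Genes of S phase, the phase in which replication-dependent histones are made, were called in the RMA intermediate, RMA late and RMA-KR late groups. A list of 32 of them summed to 1528 to 1835 normalised CPM in control libraries, 6483 to 9938 in RMA intermediate, 3965 to 8068 in RMA late, 3581 to 6497 in RMA-KR late, 2019 to 5222 in RMA-KR intermediate and 1698 to 1809 in RMA-KR early. RMA early libraries held 1492, 3360 and 2864. RMA-KR intermediate replicates 1 and 2 held 2019 and 2317, and replicates 3, 4 and 5, those with low handling genes, held 5222, 2806 and 4228. All libraries of the intermediate and late groups and 2 of the 3 RMA early libraries thus lay above every control library. Of the 32, 20 rose in RMA intermediate (background 1.65%), 15 in RMA late (background 1.79%) and 8 in RMA-KR late (background 0.983%) against control, and none fell. In RMA-KR intermediate none was called by edgeR, 13 had an unadjusted p under 0.05 and all 32 were fitted higher, and in RMA early none was called, 7 had such a p and 28 were fitted higher. Over all genes tested, 50.7% were fitted higher in RMA-KR intermediate and 46% in RMA early. Rrm2, a subunit of ribonucleotide reductase, rose by 3.94, 3.65 and 3.34 in the 3 groups (adjusted p = 0.000221, 0.000442 and 0.00156) and differed by 0.63 in RMA-KR intermediate (adjusted p = 0.999). What part the number of dividing cells had in the histone levels was not tested.

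**Figure D5:**
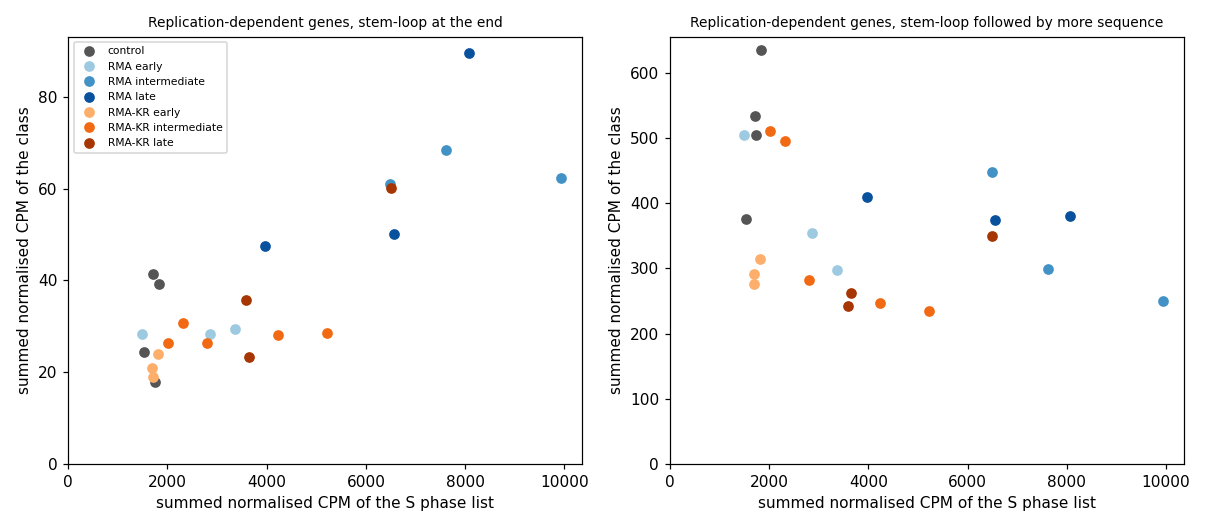
Each point is a library, coloured by group. The horizontal axis is the summed normalised CPM of the 32 S phase genes. The vertical axis is that of the replication-dependent genes with the stem-loop at the end (left) or followed by more sequence (right). The left sums are 61.1 to 68.4 in RMA intermediate libraries and highest in an RMA late library (89.6). The right sums are highest in a control library (635).

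Genes that process, carry and deposit histones were examined in a list of 34, chosen with earlier results of these data known. Against control, 5 rose in RMA intermediate (background 1.65%), 3 in RMA late (background 1.79%) and 1 in RMA-KR late (background 0.983%), and none fell. The medians of the list were 0.70, 0.43 and 0.25, against -0.29, -0.18 and -0.18 for all genes. In RMA early, RMA-KR early and RMA-KR intermediate none was called by edgeR, and 3, 1 and 4 had an unadjusted p under 0.05. Asf1b, a chaperone of H3 and H4, rose by 3.00 ± 0.37 in RMA intermediate (adjusted p = 0.000145), 2.90 ± 0.37 in RMA late (adjusted p = 0.000193) and 2.5 ± 0.36 in RMA-KR late (adjusted p = 0.00104). Chaf1a, a subunit of the chromatin assembly factor that acts at replication forks, rose by 3.63 and 3.02 in the RMA intermediate and late groups (adjusted p = 0.00772 and 0.0212), and Dnajc9, a co-chaperone of H3 and H4, by 1.13 and 1.21 (adjusted p = 0.00589 and 0.00288). Hat1, which acetylates new H4, and its partner Rbbp7 rose in RMA intermediate by 1.01 and 1.03 (adjusted p = 0.0365 and 0.00474). Slbp, which binds the stem-loop, differed by 0.99 there and missed the fold limit (adjusted p = 0.0146).

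Of 5 other histone genes outside the naming rule, Cenpa and H1f0 could be tested. Cenpa, the H3 of centromeres, rose by 1.59 in RMA intermediate, 2.27 in RMA late and 2.38 in RMA-KR late (adjusted p = 0.00775, 0.000442 and 0.000580) and was 2.19 higher in RMA-KR late than in RMA-KR intermediate (adjusted p = 0.00130). H1f0, the linker histone of resting cells, was not called in any of these comparisons (RMA late 1.55, adjusted p = 0.239). At the intermediate stage, Asf1b (2.31, adjusted p = 0.000903), Cenpa (1.40, adjusted p = 0.0291) and the H2A.Z chaperone Anp32e (1.02, adjusted p = 0.0233) were also higher with RMA than with RMA-KR.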

How the data were processed

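The authors deposited raw counts per gene for 24 libraries of 1 x 50 nt reads, trimmed with cutadapt 1.10, cleared of rRNA with Bowtie2 2.2.8, aligned to mm10 with STAR 2.5.3a and counted with HTSeq 0.6.1p1. A deposited column of median transcript length (in bases) gave levels per kilobase. Another 48 per-library columns and the authors' own DESeq2 comparisons (fold changes and p-values) were not used. Gene coordinates and models came from GENCODE M21, promoters from RefSeq.

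Counts were tested with edgeR 4.0.16 (R 4.3.3, TMM, filterByExpr, robust quasi-likelihood F test, all 24 libraries in one fit, Benjamini-Hochberg over 17097 genes) in 12 comparisons and over the 7 groups, after tests on simulated data. The comparison of the RMA and RMA-KR intermediate groups was added to these 12 after the data were seen. Alternatives used DESeq2 1.42.0, other filters and scaling, and left-out libraries. Genes were named when variant and over the limit of 10 counts in 3 libraries, when called, when among the 2 most counted of a family, or when next to that limit. The members and lists were chosen with earlier results of these data known. Floors cover counting error only. Values after ± in the text are standard errors of the edgeR fits over all 24 libraries.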

Additional observations from a re-analysis of the deposited data

Results flagged for a closer look

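Among 59 groups of 4 or 5 libraries examined for a library far from the rest, 2 held one, where chance gives about 1 in 20. Hist1h4d stood at 29.0 normalised CPM in control replicate 1, against 12.6 to 14.9 in the other control libraries. Hist1h3b stood at 0.554 in the same library, against 0 in the other 3. That value is 3 counts, and any value above 0 would stand out from 3 equal ones, so nothing is read from it.

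The effect of tumor at the intermediate stage differed between the models for 3 histone genes by the test of RMA against RMA-KR (background 0.503%), with log2 fold changes of 2.27 for H2afx, 4.36 for Hist1h2ab and 2.06 for Hist1h4d. The H2afx call held with each library left out in turn (edgeR adjusted p at most 0.00414). The calls of Hist1h2ab and Hist1h4d were lost in 7 and 5 of these 8 fits. The groups were taken on day 4 and day 7, so tumor and day cannot be told apart.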

How the results depend on the processing

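Counts of called histone genes moved with the tool and with single libraries, and no log2 fold change printed for a named gene changed sign under the alternatives run. DESeq2 with default settings called 1 in RMA-KR early, 12 in RMA intermediate, 7 in RMA late and 8 in RMA-KR late against control, 1 in RMA early against RMA-KR early, 6 in RMA intermediate against RMA early, 1 in RMA-KR intermediate against RMA-KR early, 5 in RMA-KR late against RMA-KR intermediate, 6 in RMA against RMA-KR intermediate and 21 over the 7 groups (19.2% of all genes). With betaPrior=TRUE the counts were 1, 5, 7, 6, 1, 5, 0, 4 and 7 in the same order, and the test over the 7 groups was not run. Without a filter, 1 was called in RMA-KR early and 2 in RMA late against control. Fitted on only the groups compared, 7 were called in RMA intermediate and 1 in RMA-KR late against control, 0 in RMA intermediate against RMA early and 0 in RMA-KR late against RMA-KR intermediate. Without the 4 libraries with low handling genes, a choice made after the data were seen, 1 was called in RMA late and 1 in RMA-KR late against control, 0 in RMA-KR late against RMA-KR intermediate and 4 over the 7 groups (3.99% of all genes). The cause was not tested. The background moved too. Over all genes, DESeq2 with default settings called 66, 147, 663, 25, 624 and 483 in RMA early, RMA-KR early, RMA intermediate, RMA-KR intermediate, RMA late and RMA-KR late against control, where edgeR called 0, 14, 282, 3, 306 and 168. In RMA early against RMA-KR early, RMA intermediate against RMA early, RMA-KR intermediate against RMA-KR early, RMA-KR late against RMA-KR intermediate and RMA against RMA-KR intermediate it called 338, 1034, 488, 280 and 340, where edgeR called 52, 295, 79, 51 and 86. With betaPrior=TRUE the counts over all genes were 99, 520, 529, 359, 234, 771, 365, 170 and 199 in the order of the histone counts above. Without a filter they were 110 in RMA-KR early and 472 in RMA late against control. Fitted on only the groups compared they were 762 in RMA intermediate and 118 in RMA-KR late against control, 65 in RMA intermediate against RMA early and 19 in RMA-KR late against RMA-KR intermediate. Without the 4 libraries they were 218 in RMA late and 84 in RMA-KR late against control and 12 in RMA-KR late against RMA-KR intermediate. H2afx was called in RMA intermediate, RMA late and RMA-KR late against control under every alternative run.

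Leaving out 1 library at a time gave 1 to 2 called in RMA intermediate, 1 to 2 in RMA late and 1 to 2 in RMA-KR late against control, 1 to 2 in RMA intermediate against RMA early, 0 to 1 in RMA-KR intermediate against RMA-KR early, 0 to 1 in RMA-KR late against RMA-KR intermediate, 1 to 2 in RMA against RMA-KR intermediate, 4 to 8 over the 7 groups (3.23% to 6.55% of all genes) and 0 elsewhere. Over all genes the same fits called 166 to 226, 127 to 457, 71 to 152, 49 to 568, 8 to 221, 19 to 66 and 34 to 70 in those 7 comparisons in turn.

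Replicate numbers did not pair the libraries: over 64 same-number pairs the correlation of deviations from the group means ran from -0.118 to 0.202, with 3 over 0.1. With a replicate block, 1 histone gene was called in each of RMA intermediate, RMA late and RMA-KR late against control (H2afx), 0 in RMA-KR late against RMA-KR intermediate, 1 in RMA against RMA-KR intermediate and 2 over the 7 groups (3.22% of all genes). Over all genes the block called 215, 210, 100, 16 and 42 in those 5 comparisons in turn.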
